A study of Aspergillus nidulans with 4 samples.

Results

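In total 7 genes of purine use were followed in the filamentous fungus Aspergillus nidulans: 4 genes for enzymes and an enzyme-activating protein (hxA, hxB, uaZ and uaW), the regulator gene uaY and the transporter genes uapC and azgA. They were chosen by gene name, uaW through its identifier AN0070, and all 7 were found among the 7752 genes with sense counts in the deposited tables and in each of the 4 tables of either strand. The data are 4 RNA-seq libraries of mycelium, 1 per medium, each made from RNA of 3 cultures that was pooled before sequencing. All 4 come from strain biA1, the study's wild type, whose allele makes growth depend on added biotin. Minimal medium cultures were kept at 37 °C for 9 to 12 h. The glucose media held 1% sugar and the fructose media 0.1%, each with either ammonium tartrate at 10 mM or urea as the nitrogen source. The labels give urea as 10 mM in one field and 5 mM in another, and they name no purine among the medium components. Tartrate came with ammonium alone, and the kind and amount of sugar changed together, so the parts of each change cannot be told apart.

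Fungi can use purines as a nitrogen source by oxidising them to uric acid, opening the ring and releasing urea, which urease splits to ammonium. In A. nidulans the genes of this route are switched on by UaY, a zinc cluster transcription factor that responds to uric acid, together with AreA, the GATA factor that allows nitrogen use genes to be expressed when ammonium or glutamine is scarce. The transporters bring purines into the hypha, where they also serve nucleotide salvage.

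The sense counts of the glucose libraries summed to 2606076 with ammonium and 1698692 with urea, and those of the fructose libraries to 547041 and 812637. Levels are in CPM, a count scaled by the library's sum on that strand. A count of 0 allows up to 3 counts, which is 1.15 to 5.48 CPM on the sense strand, and no value of the 7 genes was at 0. Intervals in parentheses are 95% intervals of the counts, which cover counting error only. With 1 library per medium there is no replicate check and no test of the media, so "higher" and "lower" describe these libraries. In RNA from whole mycelium, fewer cells that express a gene and less RNA per cell cannot be told apart. Levels of different genes are not compared with each other, since no gene length of the authors' annotation was used.

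In the library from fructose with urea, hxA and hxB stood at their highest levels, 7.29-fold and 11.0-fold above glucose with urea, while the regulator gene uaY stood at its lowest. The uaZ transcript followed the carbon source and differed little by nitrogen source. The uaW transcript was low in fructose with ammonium alone. The transporter genes uapC and azgA were the 2 of the 7 genes whose nitrogen ratio in glucose had an interval above 0. The share of all genes with such an interval was not computed, and such intervals were also seen outside the transporter genes.

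**Figure D1:**
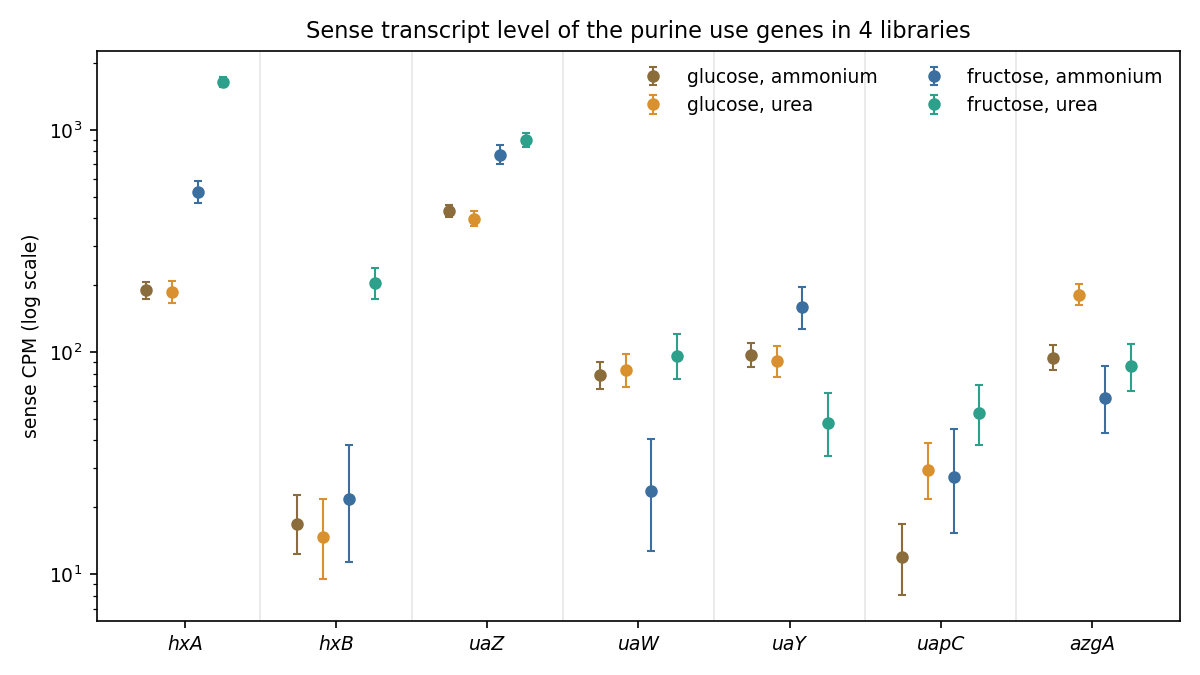
Sense level in CPM on a log axis for each of the 7 genes in the 4 libraries, with 1 point per library and bars for the exact 95% Poisson interval of the count. hxA and hxB stand highest in fructose with urea, at 1644 and 204 CPM, where uaY stands lowest, at 48.0 CPM.

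hxA (AN5613) encodes purine hydroxylase I, the molybdenum enzyme that oxidises hypoxanthine to xanthine and xanthine to uric acid. It had 495 sense counts in glucose with ammonium, 317 in glucose with urea, 288 in fructose with ammonium and 1336 in fructose with urea. In CPM these are 190 (174 to 207), 187 (167 to 208), 526 (467 to 591) and 1644 (1557 to 1735). The intervals of the glucose libraries overlapped, and those of the fructose libraries overlapped with no other. In log2 ratios of TMM-scaled counts with a prior count of 1, urea over ammonium stood at 0.03 (-0.18 to 0.23) in glucose and at 1.44 (1.26 to 1.63) in fructose. The carbon ratio, fructose over glucose, stood at 2.87 (2.69 to 3.05) with urea and at 1.42 (1.21 to 1.64) with ammonium. A higher level in fructose was thus seen with either nitrogen source, and the largest distance was that between the urea libraries.

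hxB (AN1637) encodes the sulfurase that adds the terminal sulfur to the molybdenum cofactor, which HxA needs for its activity. It had 44 sense counts in glucose with ammonium, 25 in glucose with urea, 12 in fructose with ammonium and 166 in fructose with urea, or 16.9 (12.3 to 22.7), 14.7 (9.52 to 21.7), 21.9 (11.3 to 38.3) and 204 (174 to 238) CPM. The first 3 libraries overlapped and the last stood apart. Urea over ammonium was -0.14 (-0.92 to 0.59) in glucose and 2.94 (2.18 to 4.0) in fructose. The carbon ratio was 3.46 (2.91 to 4.20) with urea and 0.32 (-0.72 to 1.28) with ammonium. Where hxA stood above glucose in both fructose libraries, hxB did so in the one with urea. With ammonium, where hxB had 12 counts in fructose, its interval overlapped that of hxA, 1.21 to 1.64, so these intervals do not set the genes apart there.

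uaZ (AN9470) encodes urate oxidase, the peroxisomal enzyme that turns uric acid into 5-hydroxyisourate. Its sense counts of 1123, 675, 423 and 732, in the order glucose with ammonium, glucose with urea, fructose with ammonium and fructose with urea, are 431 (406 to 457), 397 (368 to 429), 773 (701 to 851) and 901 (837 to 968) CPM. Both fructose libraries lay above both glucose libraries, and within each sugar the intervals overlapped. Its carbon ratio was 0.91 (0.76 to 1.07) with urea and 0.80 (0.64 to 0.96) with ammonium. Urea over ammonium was -0.06 (-0.20 to 0.07) in glucose and 0.02 (-0.15 to 0.20) in fructose, and the interval of the difference between these ratios, -0.14 to 0.31, leaves out any value as large as that of hxA or hxB.

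uaW (AN0070) encodes the decarboxylase that completes the conversion of 5-hydroxyisourate to allantoin. It had 205, 141, 13 and 78 sense counts in the same order, or 78.7 (68.3 to 90.2), 83.0 (69.9 to 97.9), 23.8 (12.7 to 40.6) and 96.0 (75.9 to 120) CPM. The library from fructose with ammonium lay below the others, which overlapped. Urea over ammonium was 0.13 (-0.19 to 0.45) in glucose and 1.76 (0.96 to 2.79) in fructose. By carbon source it stood at -0.06 (-0.48 to 0.35) with urea, a value whose sign depends on the scaling, and at -1.74 (-2.70 to -0.96) with ammonium. With 13 counts in the lowest library, the size of both distances is known within wide bounds.

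uaY (AN0891), the gene for the pathway's activator, had 253, 154, 87 and 39 sense counts, or 97.1 (85.5 to 110), 90.7 (76.9 to 106), 159 (127 to 196) and 48.0 (34.1 to 65.6) CPM. The glucose libraries overlapped, fructose with ammonium lay above them and fructose with urea below. Urea over ammonium was -0.05 (-0.35 to 0.25) in glucose and -1.89 (-2.51 to -1.37) in fructose. Fructose over glucose was -1.17 (-1.73 to -0.67) with urea and 0.67 (0.30 to 1.03) with ammonium. The order of the fructose libraries was thus the reverse of that of hxA, hxB and uaW.

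uapC (AN6730) encodes a broad-specificity purine permease of moderate capacity and is a relative of the uric acid and xanthine permease UapA. It had 31, 50, 15 and 43 sense counts, or 11.9 (8.08 to 16.9), 29.4 (21.8 to 38.8), 27.4 (15.3 to 45.2) and 52.9 (38.3 to 71.3) CPM. Glucose with ammonium was lowest, and each interval overlapped that of the next library up, while the lowest and the highest did not overlap. Urea over ammonium was 1.33 (0.68 to 2.05) in glucose and 0.72 (-0.13 to 1.70) in fructose. For carbon source the ratio was 0.57 (-0.04 to 1.20) with urea and 1.12 (0.17 to 2.09) with ammonium.

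azgA (AN8534) encodes a high-affinity transporter for hypoxanthine and adenine, used for salvage and as a nitrogen source. It had 245, 308, 34 and 70 sense counts, or 94.0 (82.6 to 107), 181 (162 to 203), 62.2 (43.0 to 86.9) and 86.1 (67.1 to 109) CPM. Glucose with urea stood apart above the others. Urea over ammonium was 1.00 (0.75 to 1.25) in glucose and 0.27 (-0.34 to 0.91) in fructose. The carbon ratio was -1.33 (-1.74 to -0.96) with urea and -0.63 (-1.20 to -0.12) with ammonium, so azgA was the one gene of the 7 that was lower in fructose, with intervals below 0, under both nitrogen sources.

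**Figure D2:**
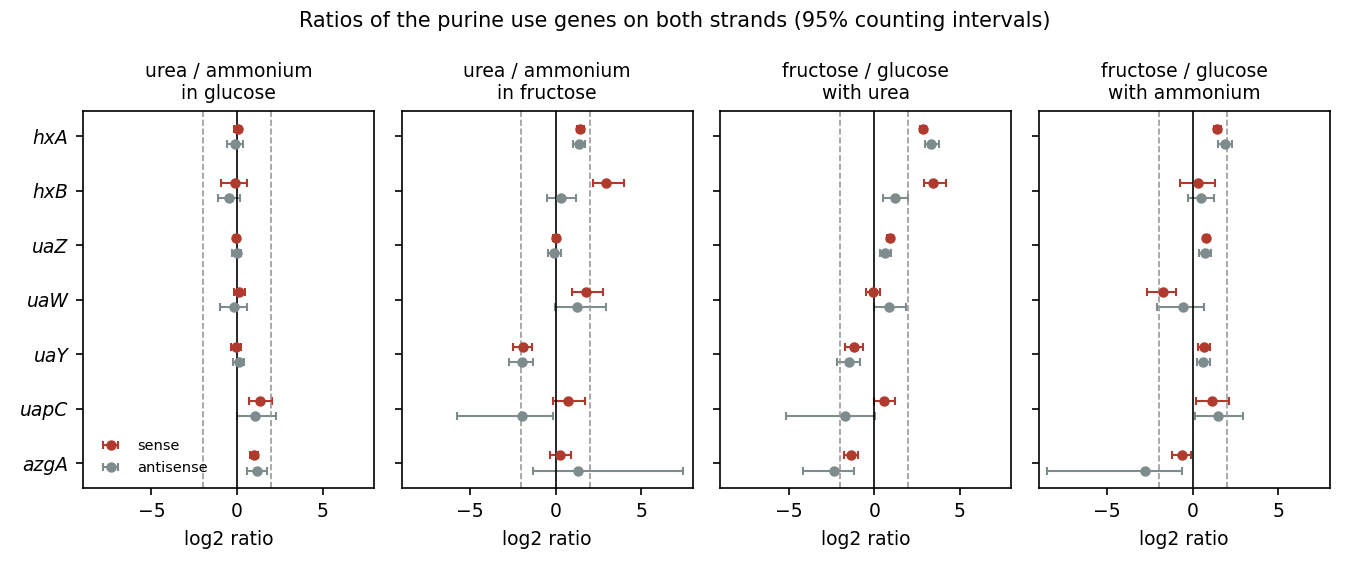
Log2 ratios of the 7 genes in the 4 comparisons, sense in red and antisense in grey, with bars for exact 95% counting intervals, a solid line at 0 and dashed lines at 4-fold. Sense hxA and hxB lie beyond 4-fold in fructose over glucose with urea, and sense hxB in urea over ammonium in fructose.

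The counts past 4-fold are set against all genes whose mean log2 CPM in the authors' deposited table was at least 3. In glucose, 0 of the 7 genes were 4-fold higher in urea, where 1.34% of 6354 genes were, and 0 were 4-fold lower, where 0.535% were. In fructose, 1 of 7, hxB, was 4-fold higher in urea against 11.4% of 7203 genes, and 0 were 4-fold lower against 11.0%. With urea, hxA and hxB, 2 of 7, were 4-fold higher in fructose against 14.6% of 7135 genes, and 0 were 4-fold lower against 15.2%. With ammonium, 0 of 7 passed 4-fold in fructose over glucose, where 8.33% of 6647 genes were higher and 7.01% lower. Counts of 0 to 2 among 7 genes are too few to be read as set apart from these shares, and each library enters 2 of the 4 comparisons.

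The medians of the 7 ratios were 0.03 for urea over ammonium in glucose, 0.72 for the same in fructose, 0.57 for fructose over glucose with urea and 0.67 with ammonium, beside 0.00, 0.07, -0.03 and -0.11 for all genes past the minimum. The spread within the group was wide outside glucose. In fructose the nitrogen ratios ran from -1.89 for uaY to 2.94 for hxB, and 3 of the 7 intervals, those of uaZ, uapC and azgA, included 0. In glucose they ran from -0.14 to 1.33, and 5 intervals included 0. The share of all genes whose interval includes 0 was not computed, so these counts of intervals cannot be read as set apart from it. Among the genes past the minimum in glucose, uapC stood at the 96.1st percentile and azgA at the 92.8th, and in fructose hxB stood at the 94.3rd.

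In the authors' deposited tables, which rest on an assumed biological coefficient of variation of 0.3, hxB had an FDR of 0.00153 and uaY one of 0.0316 for nitrogen in fructose. In that deposited table, a share of 9.98% of all genes was called higher and 11.5% lower at an FDR of 0.05 or less. For carbon with urea the authors' deposited table gave hxA an FDR of 1.45e-04 and hxB one of 1.89e-05, where 18.9% of all its genes were called higher and 18.4% lower. In the authors' deposited tables for nitrogen in glucose and for carbon with ammonium, 0 of the 7 genes had an FDR of 0.05 or less, where 0.791% and 9.78% of genes were called higher and 0.217% and 5.52% lower.

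The design crosses both sources, so the nitrogen ratio in fructose can be set against that in glucose. The difference, fructose minus glucose, was 3.09 (1.98 to 4.39) for hxB, 1.63 (0.75 to 2.71) for uaW and 1.41 (1.14 to 1.70) for hxA. It was -1.85 (-2.54 to -1.24) for uaY. Of the catabolic genes, hxA, hxB and uaW thus had a larger distance between urea and ammonium in fructose than in glucose, with uaY on the other side of 0. The catabolic gene uaZ did not share this, at 0.09 (-0.14 to 0.31). For the transporter genes it was -0.73 (-1.39 to -0.04) for azgA and -0.60 (-1.76 to 0.57) for uapC, where the interval included 0. Over 6024 genes the median difference was -0.13, with 7.12% at 2 or more and 12.5% at -2 or less. Of the 7 genes, hxB was at 2 or more and 0 were at -2 or less. Among all these genes hxB stood at the 97.9th percentile, uaW at the 89.5th, hxA at the 86.8th and uaY at the 13.9th.

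The other genes of purine use were taken from a list of symbols and description words, which matched 8 genes; 14 of its symbols, among them uapA and the hxn genes, had no match in the tables' names. Ahead of HxA in the route, AN10903, described through orthologs as a guanine deaminase, had 46, 24, 12 and 167 sense counts in glucose with ammonium, glucose with urea, fructose with ammonium and fructose with urea. Like hxB, it stood apart in the last library, with 2.95 (2.19 to 4.01) for urea over ammonium in fructose and 3.53 (2.97 to 4.28) for fructose over glucose with urea. AN6815, with a predicted guanine deaminase domain, had 254, 223, 64 and 106 counts, all 4 comparisons lying between -0.28 and 0.48. The adenine deaminase gene nadA had 11, 16, 14 and 24 counts, and stood at 1.31 (0.41 to 2.39) for fructose over glucose with urea and at 2.39 (1.31 to 3.84) with ammonium. xanA, for a dioxygenase that makes uric acid from xanthine without the molybdenum cofactor, had 16, 3 and 23 counts in glucose with urea, fructose with ammonium and fructose with urea, with glucose with ammonium not analysed here. Its start is duplicated in the genome, per the deposited description, which makes its count uncertain.

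Behind urate oxidase, uaX, for the hydrolase that acts between UaZ and UaW, had 101, 54, 16 and 67 sense counts in the same order. Its nitrogen ratio was -0.23 (-0.74 to 0.26) in glucose and 1.26 (0.49 to 2.18) in fructose, so that, as for uaW, the interval included 0 in glucose and lay above 0 in fructose. The putative allantoinase gene AN4603, for the next step, had 14, 15, 40 and 303 counts, with 5.02 (4.39 to 5.99) for fructose over glucose with urea, 3.58 (2.81 to 4.72) with ammonium and 2.13 (1.67 to 2.67) for urea over ammonium in fructose. No other gene of these 8 or of the 7 had a higher carbon ratio under either nitrogen source. The putative allantoicase gene AN3104 had 14, 11, 15 and 26 counts, higher in fructose with urea, 1.92 (0.97 to 3.20), and with ammonium, 2.18 (1.16 to 3.47). The putative allantoin transporter gene furA had 24, 32, 11 and 30 counts and, like uapC and azgA, a nitrogen ratio in glucose above 0, at 1.05 (0.28 to 1.91). So did AN6815, which is not a transporter gene, at 0.48 (0.22 to 0.75).

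Of these 8 genes, 2 of 8 were 4-fold higher in urea in fructose (AN10903 and AN4603), 2 of 8 were 4-fold higher in fructose with urea (the same pair), and 3 of 7 were 4-fold higher in fructose with ammonium (AN4603, nadA and AN3104). In glucose 0 of 4 listed genes passed 4-fold by nitrogen source, where 1.34% of all genes were higher and 0.535% lower. In the other comparisons 0 were 4-fold lower, where 11.0%, 15.2% and 7.01% of all genes were, in the order just used. All of these genes passed the abundance minimum, and the shares of all genes 4-fold higher in these 3 comparisons were 11.4%, 14.6% and 8.33%. The medians were 0.12 and 0.95 for nitrogen in glucose and in fructose, and 1.28 and 1.03 for carbon with urea and with ammonium. These 4 lay above the medians of all genes given before, as did those of the 7 genes.

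**Figure D3:**
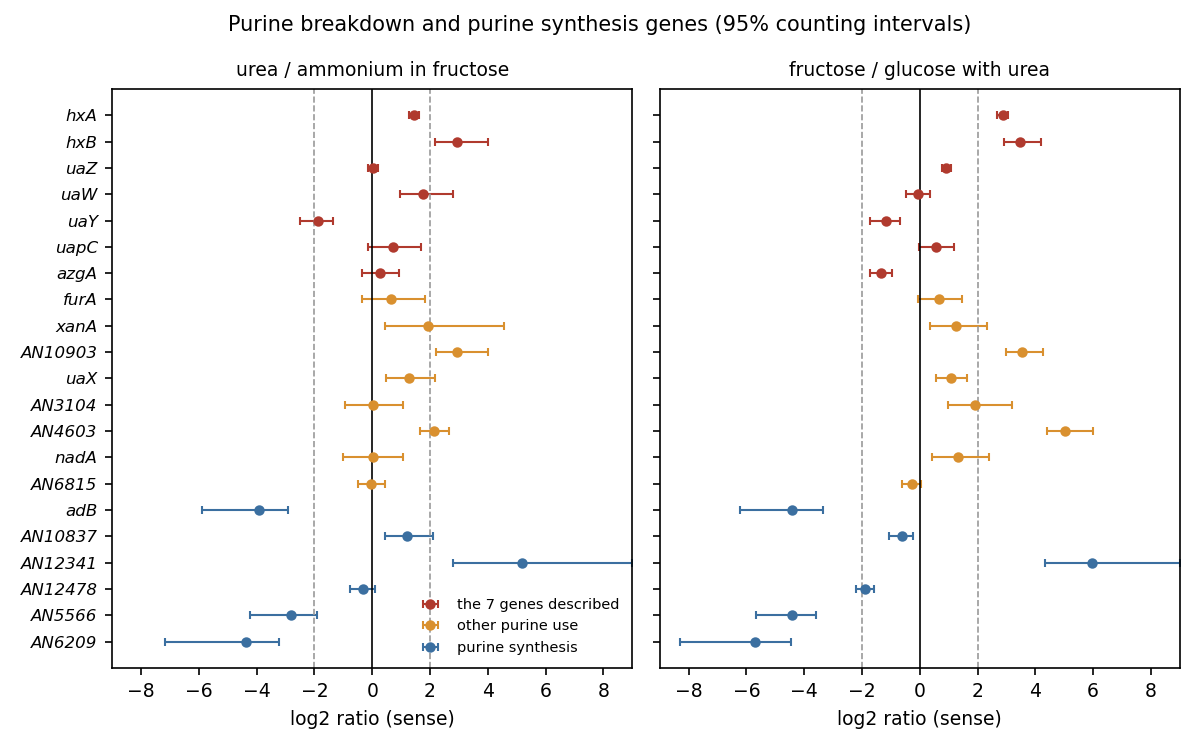
Sense log2 ratios for urea over ammonium in fructose (left) and fructose over glucose with urea (right) of the 7 genes (red), the 8 other purine use genes (orange) and 6 purine synthesis genes (blue), with exact 95% counting intervals and dashed lines at 4-fold. AN4603 stands at 5.02 on the right and AN6209 at -5.70; the bars of AN12341 have no upper end, as its lower library is at 0, and its points depend on the prior count.

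Purine synthesis genes, matched by description words, differed among themselves in fructose. Of 6, 3 were 4-fold lower and 1 higher for urea over ammonium in fructose, where 11.0% and 11.4% of all genes were. For fructose over glucose with urea 3 were again 4-fold lower and 1 higher, where 15.2% and 14.6% of all genes were. In glucose 0 of 5 passed 4-fold by nitrogen source, where 1.34% of all genes were higher and 0.535% lower, and their median was 0.05. The adenylosuccinate synthase gene adB had 506, 210, 55 and 5 counts, -3.92 (-5.91 to -2.92) for urea over ammonium in fructose. The adenylosuccinate lyase gene AN6209 had 542, 336, 51 and 3, -4.37 (-7.18 to -3.23), and the GMP synthase gene AN5566 had 540, 360, 42 and 9, -2.83 (-4.22 to -1.93). The one higher, AN12341, with a predicted carboxylase domain of the pathway, had 45 counts in fructose with urea and 0 in fructose with ammonium and glucose with urea. With 3 counts put in place of 0, it was 8.80-fold and 26.0-fold higher. The lower ends of its log2 intervals, which also cover the error of the 45 counts, were 2.78 and 4.34. AN10837 was higher in urea in fructose too, at 1.20 (0.45 to 2.09), and AN12478 stood at -0.32 (-0.76 to 0.11), both named after their values were seen. The medians were -1.58 for nitrogen in fructose, -3.14 for carbon with urea and -1.47 for carbon with ammonium, all on the other side of 0 from those of the purine use genes. For carbon with ammonium 0 of 5 passed 4-fold, where 8.33% of all genes were higher and 7.01% lower.

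The molybdenum cofactor, which HxA shares with nitrate reductase, is made by the cnx gene products. A list of these genes and niaD matched 8. Of 7 with a carbon ratio with urea, 0 were 4-fold higher and 2 were 4-fold lower, where 14.6% and 15.2% of all genes were, niaD (nitrate reductase) at -5.05 (-11.14 to -3.31) and cnxH (molybdopterin synthase large subunit) at -3.13 (-3.93 to -2.51). The small subunit gene cnxG stood at -1.79 (-3.16 to -0.79). In fructose by nitrogen source, cnxH and cnxG stood at -1.91 (-2.84 to -1.18) and -1.93 (-3.48 to -0.85). Of the other cofactor genes, all named after their values were seen, cnxF and cnxABC stood on the side of hxA and hxB. They were at 1.15 (0.26 to 2.25) and 0.73 (0.25 to 1.26), and for carbon with urea at 1.45 (0.79 to 2.21) and 0.48 (0.14 to 0.82). AN0183 and cnxE stood on the other side for carbon with urea, at -1.66 (-2.32 to -1.10) and -1.02 (-1.70 to -0.42). For nitrogen in fructose AN0183 stood at -0.89 (-1.71 to -0.13) and cnxE at 0.97 (-0.13 to 2.38). AN9038, with a predicted role in cofactor synthesis, had 7 counts in fructose with ammonium and 0 in fructose with urea and in glucose with ammonium. With 3 counts put in place of 0, it was 3.98-fold and 10.8-fold higher than in these. The ends of its log2 intervals nearest 0 were -1.30 for nitrogen in fructose and 2.74 for carbon with ammonium. With genes at 0 taken at their bound against 3 counts, 0 of 7 were past 4-fold for nitrogen in fructose. Of all genes, 11.4% were higher and 11.0% lower there. With ammonium AN9038 was the 1 of 8 higher in fructose, niaD the 1 lower, at -2.08 (-3.81 to -0.89), where 8.33% and 7.01% of all genes were, but AN9038 did not pass the abundance minimum. In glucose 0 of 7 passed 4-fold by nitrogen source, where 1.34% of all genes were higher and 0.535% lower. The medians were 0.38, -0.89, -1.66 and -0.33 for nitrogen in glucose and fructose and carbon with urea and ammonium.

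Of the genes that handle urea, the end product, the urease gene ureB had 52, 69, 8 and 72 counts and was higher in urea in both sugars, at 1.06 (0.54 to 1.63) in glucose and 2.30 (1.34 to 3.67) in fructose. The urea transporter gene ureA had 1 and 151 counts in the glucose libraries and 5 in fructose with urea, or 6.76 (5.41 to 13.22) for nitrogen in glucose and -3.94 (-5.76 to -2.87) for carbon with urea. ureD, for a nickel-binding protein of urea use, had 1451, 820, 106 and 102 counts and was lower in fructose with either nitrogen source, at -2.20 (-2.52 to -1.91) with urea and -1.56 (-1.86 to -1.28) with ammonium. Past 4-fold were 1 of 3 higher by nitrogen in glucose, 1 of 2 higher by nitrogen in fructose, 2 of 3 lower by carbon with urea and 0 of 2 by carbon with ammonium, with medians of 1.06, 0.74, -2.20 and -1.02. The shares of all genes past 4-fold in the same direction were 1.34%, 11.4% and 15.2% in the first 3 of these comparisons. In the last, 8.33% of all genes were higher and 7.01% lower.

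Among other nucleobase transporter genes, AN7967, with a predicted nucleobase transporter domain, had 2, 3 and 67 counts in glucose with urea, fructose with ammonium and fructose with urea. The purine and cytosine transporter gene fcyB, named like cntA after its values were seen, had 33, 38, 3 and 2 counts, with 0.85 (0.16 to 1.59) for urea over ammonium in glucose. fcyB thus had, like uapC, azgA and furA, a nitrogen ratio in glucose with an interval above 0, and, like azgA, a lower level in fructose with urea than in glucose with urea, at -3.05 (-6.55 to -1.50). An interval above 0 for nitrogen in glucose was not particular to transporter genes. It was also seen at ureB, at the nucleotidase-like gene AN6325, 1.28 (0.81 to 1.79), and at the salvage gene AN9083, 0.43 (0.18 to 0.68). The cofactor genes cnxE, at 1.11 (0.67 to 1.58), and cnxABC, at 0.66 (0.34 to 0.98), had one as well. So did cnxH, at 0.38 (0.16 to 0.61), and niaD, at 0.59 (0.18 to 1.01), while the intervals of AN0183, cnxF and cnxG included 0. The nucleoside transporter gene cntA had 163, 66, 15 and 88 counts and the opposite nitrogen sign in glucose, -0.63 (-1.07 to -0.21). AN6783 and AN4228 of the same group, named after their values were seen, were lower in urea in glucose too. They stood at -1.46 (-2.42 to -0.69) and -1.94 (-3.81 to -0.73). The word list behind this group, which also holds furA of the purine use list, matched 15 genes, several of which are not transporters. Of these, the methyltransferase homologue gene dmtA had 3, 0, 6 and 17 counts, the nucleotidase-like gene AN6325 had 59, 91, 5 and 3, and the cytosine deaminase-like gene AN12316 had 65, 51, 1 and 6. With genes at 0 taken at their bound against 3 counts, 0 of 11 were past 4-fold for nitrogen in glucose. Of all genes, 1.34% were higher and 0.535% lower there. For nitrogen in fructose 1 was higher and 0 lower of 10, where 11.4% and 11.0% of all genes were. For carbon with urea 5 were higher and 3 lower of 14, and 3 and 3 of the 12 past the abundance minimum, where 14.6% and 15.2% of all genes were. For carbon with ammonium 1 was higher and 3 lower of 12, and 0 and 3 of the 11 past the minimum, where 8.33% and 7.01% of all genes were. The medians were -0.05, 0.91, 0.40 and -1.0 in that order.

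Of the salvage genes, the adenine phosphoribosyltransferase gene AN9083 had 293, 248, 87 and 66 counts and the adenosine deaminase gene AN0662 had 82, 48, 15 and 49. AN9083 was lower in urea in fructose, -1.15 (-1.65 to -0.69), and AN0662 higher, 0.91 (0.08 to 1.88). AN12059, a tRNA-specific adenosine deaminase by orthology that the same words matched, had 32, 11 and 0 counts in glucose with ammonium, glucose with urea and fructose with ammonium. With 3 counts put in place of 0, it was 2.31-fold lower in fructose with ammonium than in glucose with ammonium. The upper end of its log2 interval there was -0.82. With this gene at its bound, 0 salvage genes were past 4-fold in any of the 4 comparisons. Of all genes, 1.34% were higher and 0.535% lower for nitrogen in glucose, and 11.4% and 11.0% for nitrogen in fructose. For carbon the shares were 14.6% and 15.2% with urea and 8.33% and 7.01% with ammonium. The medians of the salvage genes were -0.10 and -0.12 for nitrogen in glucose and fructose and -0.15 and -0.24 for carbon with urea and ammonium. Of the regulators, areA had 162, 148, 31 and 109 counts, higher in urea at 0.54 (0.21 to 0.87) in glucose and 1.03 (0.46 to 1.67) in fructose. The repression gene nmrA had 105, 43, 19 and 32 counts, areB 54, 44, 6 and 19, and tamA, for a co-activator of AreA, 27, 14, 12 and 26. These 3 had nitrogen ratios in fructose with intervals that included 0. In glucose nmrA was lower in urea, at -0.61 (-1.17 to -0.09), and with urea tamA was higher in fructose, at 1.60 (0.70 to 2.74). Past 4-fold were 0 of the 4 regulator genes in each comparison, with medians of 0.05, 0.57, 0.36 and -0.21. A count of 0 among 4 genes is not set apart from the shares of all genes just given.

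The libraries are strand-specific, and reads from the opposite strand were counted at all 7 loci. How completely the strands were kept apart was not tested, so the part of misassigned sense reads in the antisense counts is not known. Antisense counts made up 24.6% to 28.9% of all counts in the 4 libraries, and the median locus of 20 or more counts had an antisense share of 28.0% in glucose with ammonium, 23.9% in glucose with urea, 23.5% in fructose with ammonium and 20.7% in fructose with urea. Shares at hxA ran from 15.7% to 22.8%, at uaZ from 15.0% to 21.7% and at uaW from 13.5% to 31.6%, the last from 19 counts. Those of azgA were 16.1%, 15.4%, 2.86% and 6.67%, and those of uapC 31.1%, 24.2%, 34.8% and 4.44%, in the order glucose with ammonium, glucose with urea, fructose with ammonium and fructose with urea. The enzyme genes hxA and uaZ thus lay below the median locus in all 4 libraries.

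At hxB the antisense strand held most of the counted reads in 3 libraries, though the interval lay above 50% in glucose with ammonium alone. The antisense share was 63.9% (54.7% to 72.4%) in glucose with ammonium, 54.5% (40.6% to 68.0%) in glucose with urea, 63.6% (45.1% to 79.6%) in fructose with ammonium and 17.8% (12.8% to 23.8%) in fructose with urea. A share of 50% or more was seen at 6.52%, 5.10%, 8.24% and 5.64% of loci in these libraries. The antisense counts were 78, 30, 21 and 36, so the nitrogen ratio in fructose was 0.30 (-0.50 to 1.17) on the antisense strand and 2.94 on the sense strand. The log2 odds of antisense to sense changed by -2.97 (-4.29 to -1.76) from ammonium to urea in fructose, where the median over 4381 loci was -0.27, and this comparison, added after the counts were seen, needs no scaling between libraries. The adjacent genes AN1636 and AN1638, by the order of the RefSeq annotation of assembly ASM1142v1, had 335, 217, 75 and 43 and 1496, 621, 165 and 402 sense counts, and their part in the antisense counts was not tested.

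At uaY the antisense share was high in all 4 libraries, at 48.2% (43.6% to 52.7%), 46.2% (40.3% to 52.1%), 44.2% (36.3% to 52.4%) and 38.1% (26.1% to 51.2%) in the order used before, between the 87.1st and the 93.0th percentile of loci. With each strand scaled to its own sum, the shares at uaY were 69.6%, 70.2%, 67.3% and 65.4%, so whether antisense is the larger part there depends on that scaling. The ratios of both strands had overlapping intervals. The antisense counts of 235, 132, 69 and 24 gave nitrogen ratios of 0.09 (-0.23 to 0.40) in glucose and -1.94 (-2.72 to -1.30) in fructose, next to -0.05 and -1.89 on the sense strand. The carbon ratio was -1.45 (-2.17 to -0.84) with urea and 0.62 (0.22 to 1.02) with ammonium, so the sign differed between the nitrogen sources on both strands.

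The antisense ratios of hxA and azgA are set beside their sense ratios. At hxA they were 1.37 (1.02 to 1.74) for nitrogen in fructose, 3.32 (2.94 to 3.77) for carbon with urea and 1.86 (1.45 to 2.28) for carbon with ammonium. At azgA they were 1.15 (0.59 to 1.76) for nitrogen in glucose and -2.36 (-4.18 to -1.20) for carbon with urea, from 56 and 5 counts. An opposite sign stood at uapC, with 2 antisense counts in fructose with urea and 8 in fructose with ammonium, -1.95 (-5.74 to -0.14), against 0.72 on the sense strand. Past 4-fold on the antisense strand were hxA, higher in fructose with urea, and azgA, lower in fructose with both nitrogen sources, with 1 count in fructose with ammonium. With urea 14.3% of antisense loci were 4-fold higher in fructose and 17.8% lower, and with ammonium 9.36% and 13.0%. By nitrogen source 0 of the 7 passed, where 2.18% of loci were higher and 2.32% lower in glucose and 16.3% and 13.3% in fructose. In the authors' deposited antisense tables hxA had an FDR of 3.69e-05 and azgA one of 0.0257 for carbon with urea, where 13.4% of loci were called higher and 14.4% lower. In the authors' deposited antisense tables of the other comparisons 0 of the 7 genes were called, where 0.447% of loci were called higher and 0.149% lower for nitrogen in glucose, 5.82% and 7.35% for nitrogen in fructose and 6.87% and 4.58% for carbon with ammonium.

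**Figure D4:**
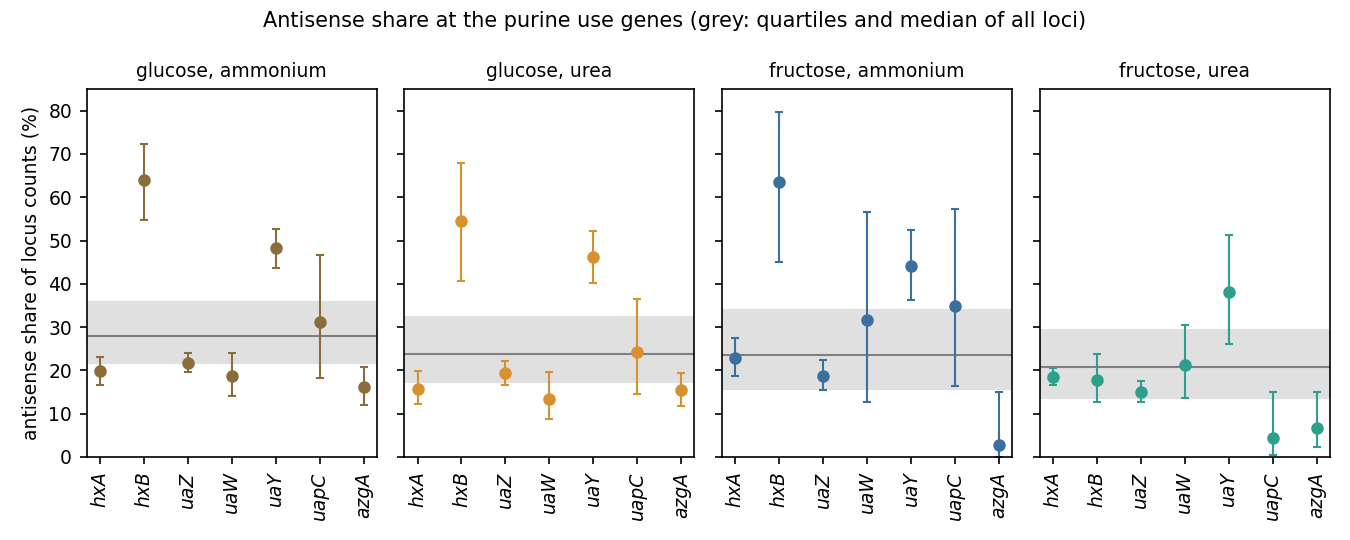
Antisense share of the counts at each of the 7 loci in the 4 libraries, in percent, with exact 95% Clopper-Pearson bars; the grey band spans the middle 50% of loci with 20 or more counts and the grey line is their median. hxB lies above the band at 63.9%, 54.5% and 63.6% and within it at 17.8% in fructose with urea, and uaY lies above it in all 4 libraries.

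Likeness between sense profiles was measured as the largest absolute difference, over the 4 libraries, of log2 TMM-scaled levels centred on each gene's mean, so a value of 1 is a 2-fold distance in the library where 2 profiles differ most. Within the 7 genes the closest pairs were uaZ and uapC at 0.69, uaW and azgA at 0.80, and hxA and hxB at 0.89. The most distant were hxB and uaY at 3.52, then hxA and uaY at 2.88. Across 5819 other genes of 100 or more counts, the nearest to hxB was AN10903, the guanine deaminase-like gene described before, at 0.06, followed by AN3218 at 0.12. The nearest to uaZ were the peroxin gene pexK at 0.05 and AN7704 at 0.05, and the nearest to hxA were AN8536, with a predicted metal ion transporter domain, and AN3425, both at 0.04. For uaW they were AN1326, with a predicted kinase domain, at 0.08 and AN12163 at 0.09, and for uaY AN1144, with a predicted peptidase domain, at 0.10 and AN1629 at 0.11. For uapC they were AN1213 at 0.09 and katA at 0.10, and for azgA AN9474 at 0.18 and the calmodulin gene CaM at 0.20. With 4 points per profile, these matches describe the 4 libraries and no more.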

How the data were processed

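The deposited data are 8 tables, a sense and an antisense one for each of 4 comparisons. Their columns, per the file headers, are raw counts of reads for a pair of libraries, a log2 fold change and mean log2 CPM made by the authors, and a p-value with its FDR. The submitters' processing notes name HTSeq and edgeR, and the table names carry 0.3 as the coefficient of variation used for the tests. Aligner, genome build and annotation were not given in the sources used. Counts of a library were equal in its different tables. The 16 columns of normalised values were not used.

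From the deposited counts, log2 ratios were computed with TMM factors from edgeR 4.0.16 (R 4.3.3) within each table and a prior count of 1. Intervals of ratios are exact 95% Clopper-Pearson intervals of the share of 2 counts, turned into a scaled ratio. Those of CPM are exact Poisson intervals, and those of differences of ratios and of antisense odds are exact conditional odds ratio intervals (scipy 1.17.1). For the odds change itself 0.5 was added to each count. Intervals cover counting error only, since each medium has 1 library. The libraries were amplified and the labels name no molecular identifiers, so the intervals may be too narrow even for that error. On the sense strand the ratios lay within 0.0827 of the deposited log2 fold changes for genes of 20 or more counts in both libraries. Shares of genes past 4-fold rest on genes whose deposited mean log2 CPM reached 3, and list counts on every list gene in the table, with genes at 0 in a library taken at their bound against 3 counts per library. Scripts were tested on simulated data. Alternatives were total count scaling, DESeq2 1.42.0 size factors, TMM over genes counted in all 4 libraries, prior counts of 0.5 and 5 and, added later, the route through the other 3 tables.

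The 7 genes and the gene lists were chosen with earlier results of these data known. Named were the 7 genes, every gene of the purine use list, up to 4 genes with the largest ratio from each other list, the regulators and, per gene, the 2 nearest profiles; where a gene outside the rule is named, this is said. RefSeq annotation (ASM1142v1) gave adjacent genes; it matched all 7 genes and 7345 of 7752.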

Additional observations from a re-analysis of the deposited data

Results flagged for a closer look

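The sense ratio of fructose over glucose of uaY stood out because it had opposite signs under the 2 nitrogen sources, -1.17 with urea and 0.67 with ammonium, each with a counting interval that leaves out 0. With 1 library per medium the difference was not tested against the spread between cultures.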

How the results depend on the processing

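No paired analysis was possible because each medium has 1 library. The 28 sense ratios of the 7 genes stayed within their counting intervals under DESeq2 size factors, TMM over genes counted in all 4 libraries, both other prior counts and the route through the other 3 tables, and 24 of 28 did so under total count scaling. No ratio whose interval leaves out 0 changed sign; of those whose interval includes 0, hxA for nitrogen in glucose went from 0.03 to -0.02 under total counts, and uaW for carbon with urea from -0.06 to 0.21 under total counts and 0.02 under TMM over genes counted in all 4 libraries. Total count scaling moved all ratios by 0.20 for nitrogen in fructose and 0.27 for carbon with urea, which put hxA at 1.64 and 3.13, uaZ at 0.22 and 1.18 and the nitrogen difference of uaZ at 0.34. The numbers of the 7 genes past 4-fold were equal under all 6 alternatives. A prior count of 5 lowered the numbers of genes past the abundance minimum that passed 4-fold. By nitrogen source they were 55 higher and 20 lower in glucose, in place of 85 and 34. In fructose they were 480 higher and 558 lower, in place of 822 and 789. For fructose over glucose they were 887 higher and 911 lower with urea, in place of 1044 and 1088. With ammonium they were 467 and 329, in place of 554 and 466. At 2-fold, the 8 other purine use genes gave 1 and 4 higher for nitrogen in glucose and fructose and 6 and 4 higher for carbon with urea and ammonium, with 0 lower. The share of all genes past 2-fold was not computed, so these counts cannot be read as set apart from it. For scale, uaZ at 0.91 for carbon with urea stood at the 71.3rd percentile of genes past the abundance minimum. Taking genes at 0 at their bound, chosen after seeing the data, in place of a prior count of 1 removed 3 list calls, those of AN9038 and AN1186 for nitrogen in fructose and AN12059 for carbon with ammonium. Antisense shares computed from CPM of each strand are larger at all 7 loci, for example 81.4%, 76.8%, 82.0% and 40.0% at hxB, 37.8%, 33.9%, 43.4% and 41.1% at hxA, and 69.6%, 70.2%, 67.3% and 65.4% at uaY in the order of the report. Depth limits uaW, hxB and uapC in fructose with ammonium most, with 13, 12 and 15 counts.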
